A study of Mus musculus with 18 samples.

Results

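The motile cilium is built from a doublet microtubule axoneme, and 40 genes of that axoneme and of the ependymal cells that carry it were followed here, out of 38561 genes counted. The genes were listed by name for their known place in the cilium, and all 40 matched a symbol in the annotation and reached at least 10 counts in at least 1 library. RNAseq had been performed on frontal cortex, striatum and hippocampus of adult Pcm1-/- mice and wild-type (WT) littermates, strain C57BL/6J (written C57 Bl6J in the labels), with 3 libraries per genotype in each region and 18 libraries in all. The mutant mice came from embryonic stem cells with a gene-trap insertion in Pcm1 and had been backcrossed to that strain for at least 3 generations. Pcm1 encodes a scaffold of the pericentriolar material, and the insertion is present in every tissue of the animal. The labels name no treatment for either group. The names of the deposited count tables, which carry an animal number, place the 3 regions of a genotype in the same 3 animals.

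Motile cilia cover the ependymal cells that line the brain ventricles, and their beating moves the cerebrospinal fluid. Each axoneme holds a ring of outer doublets around a central pair of microtubules. Outer and inner dynein arms on the doublets make the force, radial spokes and the central apparatus set its pattern, and the nexin-dynein regulatory complex ties neighboring doublets together. The forkhead factor Foxj1 and factors of the RFX family drive transcription of these genes. Choroid plexus epithelium, which faces the same ventricles, also carries cilia and transcribes part of the same program, whereas most neurons carry a single primary cilium without dynein arms.

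The stretches just upstream of 5 of the genes are shown because levels of the genes were positively correlated between libraries (below). Drc1 and Rsph9 were among the 4 genes with the most counts per kilobase of exon, Ccdc153 and Tmem212 differed most between regions, and Dynlrb2 followed the mean of the other genes most closely. The last 3 were chosen after their values were seen. Foxj1 and Rsph1, the other genes of high level, are named only. Each run covers the 250 bases before the annotated start (RefSeq, GRCm38.p6) up to the last base that lies in no exon, so that it ends 5 bases short of the base before the start in Drc1, 16 in Rsph9, 1 in Ccdc153 and 41 in Dynlrb2, and at that base in Tmem212. It reads 5′ to 3′ on the strand of the gene, and capitals mark GTTGCC, the core of the motif bound by RFX factors, or its reverse complement GGCAAC.
Drc1 chr5:30281143-30281387 plus strand: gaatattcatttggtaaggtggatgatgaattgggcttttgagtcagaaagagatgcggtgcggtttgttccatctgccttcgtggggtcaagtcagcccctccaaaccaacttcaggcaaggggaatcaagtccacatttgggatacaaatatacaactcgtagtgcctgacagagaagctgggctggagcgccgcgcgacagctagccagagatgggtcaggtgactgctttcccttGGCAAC
Rsph9 chr17:46144217-46144450 minus strand: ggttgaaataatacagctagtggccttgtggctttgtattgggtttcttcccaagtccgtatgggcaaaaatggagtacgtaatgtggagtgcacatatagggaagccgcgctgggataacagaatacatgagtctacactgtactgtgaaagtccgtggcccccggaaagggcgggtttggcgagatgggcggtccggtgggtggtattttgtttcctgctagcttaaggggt
Ccdc153 chr9:44240427-44240675 plus strand: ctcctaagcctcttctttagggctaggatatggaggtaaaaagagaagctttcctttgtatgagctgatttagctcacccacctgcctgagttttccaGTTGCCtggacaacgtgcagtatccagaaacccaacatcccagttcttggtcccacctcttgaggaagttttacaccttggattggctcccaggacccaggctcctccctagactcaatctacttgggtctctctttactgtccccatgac
Tmem212 chr3:27896369-27896618 minus strand: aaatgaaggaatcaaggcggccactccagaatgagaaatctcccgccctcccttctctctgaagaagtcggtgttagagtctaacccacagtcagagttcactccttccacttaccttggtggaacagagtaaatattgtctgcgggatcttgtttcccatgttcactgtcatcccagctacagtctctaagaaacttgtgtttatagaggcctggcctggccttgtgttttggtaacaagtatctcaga
Dynlrb2 chr8:116504765-116504973 plus strand: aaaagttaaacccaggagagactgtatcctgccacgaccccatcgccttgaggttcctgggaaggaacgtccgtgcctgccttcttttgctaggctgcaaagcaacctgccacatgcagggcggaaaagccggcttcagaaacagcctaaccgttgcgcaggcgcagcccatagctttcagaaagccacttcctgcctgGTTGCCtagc
Counted from the annotated start, the motif began 11 bases before the start in Drc1, 51 before it in Dynlrb2 and 152 before it in Ccdc153, and no copy was found in Rsph9 or Tmem212. RefSeq promoters were at hand for 34 of the 40 genes (40 promoters). GTTGCC, searched on either strand of the 250 bases, occurred in 12 of those 40 promoters (30%) and in 10.4% of 32851 promoters of all genes. The 12 belonged to Ccdc153, Cfap44, Cfap46, Dnah7a, Dnah7b, Drc1, Dynlrb2, Enkur, Hydin, Pifo, Spag16 and Tekt1. The palindromic X-box, a longer RFX motif that can contain the shorter one, was present in 1 member promoter, that of Pifo (2.5%, against 0.374% of all). The forkhead letters TGTTTAC were found upstream of Ak7 and Cfap43 (5.0%, against 3.17% of all). These are matches of letters and not measured binding sites.

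Libraries held 24950537 to 33405081 counts on genes. Pcm1 itself lay between 120 and 172 CPM (read counts scaled to a common, TMM-normalized library size) in the 9 WT libraries and between 11.8 and 17.6 CPM in the 9 Pcm1-/- libraries, as labelled. Markers of the dissected regions mostly followed the labels, by edgeR's quasi-likelihood test at an adjusted p under 0.05. In striatum 6 of 6 striatal markers were higher than in frontal cortex (31.3% of all genes). In hippocampus 6 of 6 hippocampal markers were higher than in frontal cortex (25.8%). Of the hippocampal markers 4 of 6 were also higher in striatum than in frontal cortex, but 6 of 6 were lower in striatum than in hippocampus (26.8%). Frontal cortex markers were lower in striatum in 6 of 6 cases (30.6%) and in hippocampus in 4 of 6 (26.0%). The 20 choroid plexus markers summed to 49.96 to 61.2 CPM in frontal cortex, and to 84.6 to 236 CPM in 5 of the 6 striatal libraries, but to 6515 CPM in WT striatum replicate 3. In hippocampus they summed to 2401 to 6846 CPM in 5 libraries and to 294 CPM in Pcm1-/- replicate 2. These 2 libraries stand apart, and counts of the 40 genes and of the marker lists that moved without them are given both ways. Ttr, the transthyretin gene and the most abundant of these markers, stood at 25.3, 25.4 and 5621 CPM in the WT striatal libraries.

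**Figure D1:**
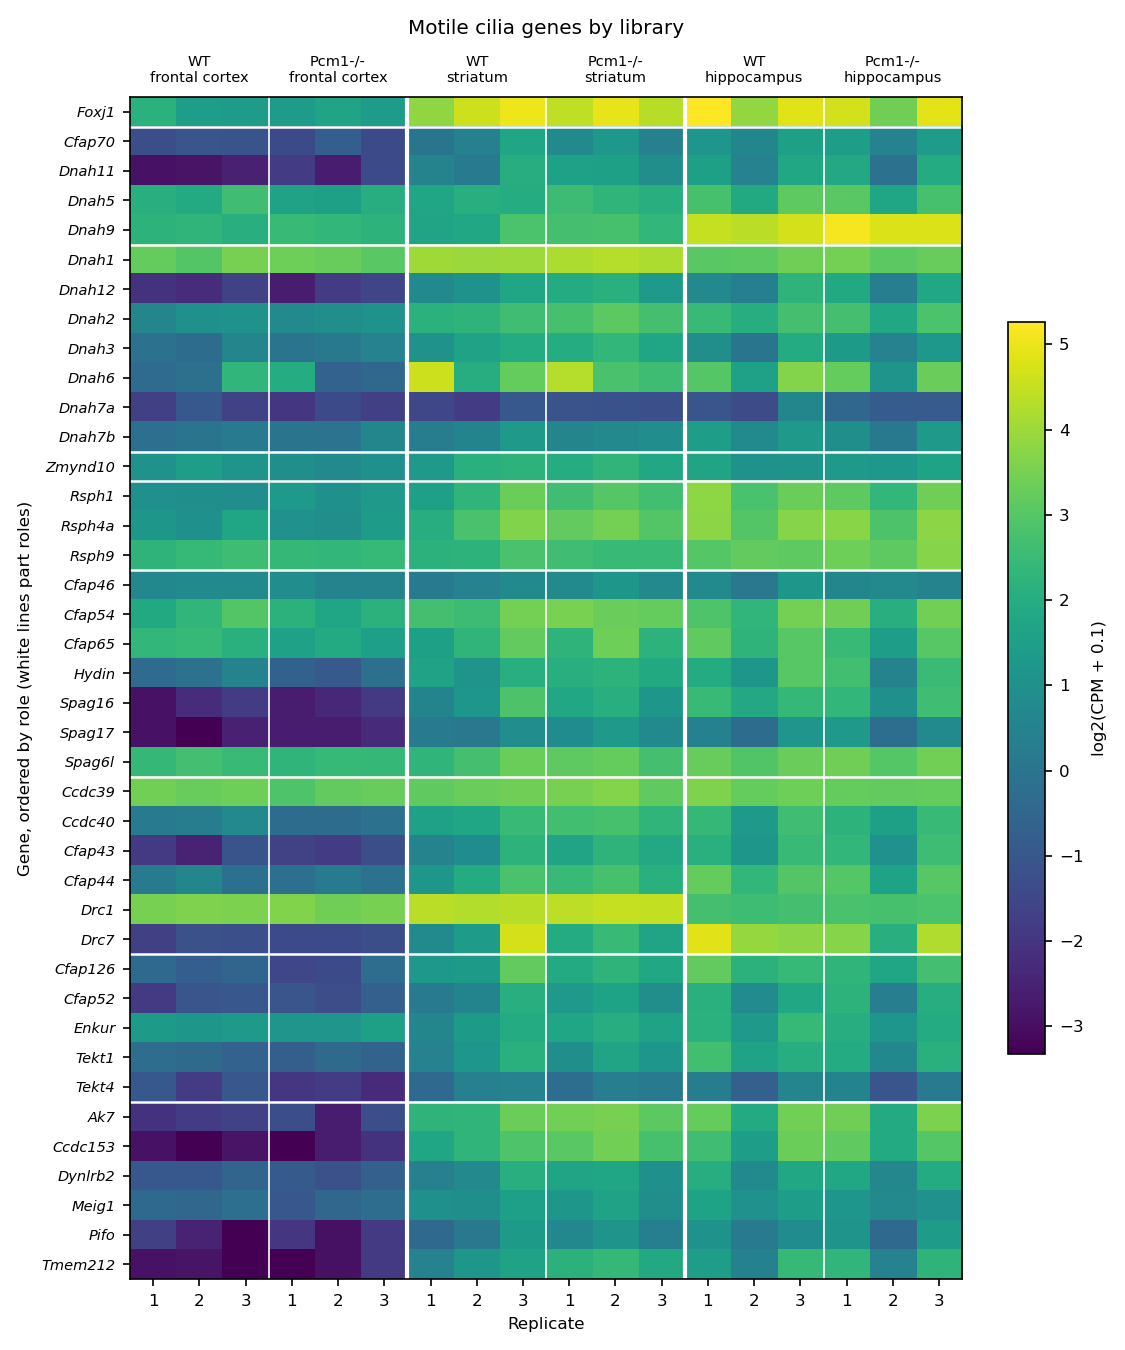
Level of each of the 40 genes (vertical, grouped by role) in each of the 18 libraries (horizontal, grouped by region and genotype), as log2(CPM + 0.1), with color giving the level. Frontal cortex columns are darker, that is lower, than striatum and hippocampus columns for most genes. Drc1, Ccdc39, Dnah1 and Rsph9 are well filled in all regions, and no block of color separates WT from Pcm1-/- columns.

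Per kilobase of exon and over the 18 libraries, the highest level was that of Foxj1 with 6.54 CPM per kilobase. Drc1 (4.84), Rsph1 (4.23), Rsph9 (4.22) and Dynlrb2 (3.56 CPM per kilobase) came next, and the lowest was the inner arm chain Dnah7a with 0.03. The order depended on the region. In frontal cortex Drc1 led with 4.28 CPM per kilobase, ahead of Rsph9 with 3.26 and Enkur with 1.51. In striatum Foxj1 led with 9.12 and Drc1 followed with 7.76, while in hippocampus Foxj1 (9.36) was followed by Rsph1 (6.66), Rsph9 (6.00) and Dynlrb2 (5.28 CPM per kilobase). Dnah7a and Dnah7b are uncertain, because 40.3% and 48.4% of the 50-base words of their longest transcripts occur in another gene, Dnah7b and Dnah7c respectively.

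The first comparison asked where in these 3 regions the motile cilium genes were transcribed. Striatum and hippocampus held more of their RNA than frontal cortex did, for nearly every role in the axoneme. In striatum 32 of 40 genes were higher than in frontal cortex and 0 were lower at an adjusted p under 0.05, whereas 31.3% of all 17545 genes tested were higher and 30.6% lower. In hippocampus 34 were higher and 1, Drc1, was lower, against 25.8% of all genes that were higher and 26.0% that were lower. The median log2 fold change of the 40 genes was 2.08 in striatum and 2.25 in hippocampus, beside 0.02 and -0.00 over all genes tested. Without overlap between libraries, 27 of the 40 were higher and 0 lower in striatum (19.9% and 21.8% of all genes), and 26 were higher and 1 lower in hippocampus (13.0% and 14.8%). Both contrasts use the same frontal cortex libraries. Counts by role in the next paragraphs stand beside the same shares of all genes called. These were 31.3% higher and 30.6% lower in striatum, and 25.8% and 26.0% in hippocampus. A role holds at most 7 genes, so that its count alone says little. All p values for regions are from edgeR's quasi-likelihood test on 18 libraries, adjusted by Benjamini-Hochberg over all genes, and in bulk tissue fewer cells of a type and less RNA per cell cannot be told apart.

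Foxj1, on chr11:116330704-116335399 (GRCm38, minus strand), showed this pattern clearly. Its level in frontal cortex was 4.34, 2.66 and 2.51 CPM in WT and 2.57, 3.12 and 2.56 CPM in Pcm1-/- libraries. In striatum it was 14.1, 24.3 and 32.9 CPM in WT and 21.6, 30.4 and 20.1 CPM in Pcm1-/- libraries, and in hippocampus 38.2, 14.4 and 28.9 CPM and 25.2, 10.5 and 30.1 CPM. Every striatal and hippocampal library was above every frontal cortex library, whereas striatum and hippocampus overlapped. The log2 fold change against frontal cortex was 3.01 ± 0.30 (SE, adjusted p = 1.89e-07) in striatum and 3.05 ± 0.30 (adjusted p = 3.27e-07) in hippocampus. Between striatum and hippocampus the difference was -0.03 ± 0.26 on the log2 scale (adjusted p = 0.929).

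The steepest differences were found among the genes grouped here as other cilium and ependymal genes. Ccdc153, a coiled-coil gene used as an ependymal marker (chr9:44240676-44247306), gave 1, 0 and 1 reads in WT and 0, 2 and 4 reads in Pcm1-/- frontal cortex. In striatum its level ran from 3.20 to 10.8 CPM with a median of 7.08 CPM, and in hippocampus from 2.66 to 9.98 CPM with a median of 6.99 CPM. Frontal cortex thus lay at the edge of detection and did not overlap the other regions. The fitted log2 fold changes, 7.22 ± 0.54 in striatum (adjusted p = 4.79e-09) and 7.20 ± 0.54 in hippocampus (adjusted p = 1.12e-08), depend on the prior count for that reason. Tmem212, a membrane protein of ciliated cells, was likewise at 0 to 5 reads per frontal cortex library. It reached 1.29 to 5.16 CPM in striatum and 1.27 to 5.31 CPM in hippocampus, with log2 fold changes of 6.12 ± 0.62 (adjusted p = 2.12e-07) and 6.24 ± 0.62 (adjusted p = 2.94e-07). Ak7, an adenylate kinase of the cilium, rose by 5.28 ± 0.43 in striatum and 5.32 ± 0.43 in hippocampus on the log2 scale (adjusted p = 1.33e-08 and 2.64e-08). With Dynlrb2, a roadblock-type dynein light chain, Meig1 and Pifo, all 6 of the other cilium and ependymal genes were called higher in each region, with smallest log2 fold changes of 1.82 and 1.80, both for Meig1.

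Dynein heavy chains are the motors of the cilium. Of 7 inner arm heavy chains 6 were higher in striatum and 6 in hippocampus, led by Dnah12 with log2 fold changes of 4.10 ± 0.46 and 3.99 ± 0.46. Dnah2 rose by 1.75 ± 0.18 in striatum (adjusted p = 2.59e-07), from 1.40 to 2.03 CPM in frontal cortex to 4.37 to 8.40 CPM. Of the 4 outer arm genes 2, Dnah11 and Cfap70, were higher in striatum, while all 4 were higher in hippocampus. Dnah9, an outer arm chain of the distal cilium, was set apart by hippocampus. Its level was 4.13, 4.68 and 5.42 CPM (lowest, median and highest) in frontal cortex, 3.12, 5.82 and 7.05 CPM in striatum, and 20.6, 26.8 and 35.3 CPM in hippocampus. Hippocampus lay above all other libraries, and frontal cortex and striatum overlapped. The log2 fold change was 2.48 ± 0.16 against frontal cortex (adjusted p = 1.45e-09) and that of striatum against hippocampus was -2.33 ± 0.16 (adjusted p = 1.25e-09).

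Dnah1, an inner arm chain, was set apart by striatum. It ran from 15.7 to 19.6 CPM in striatum with a median of 17.3 CPM, from 7.76 to 11.3 CPM in frontal cortex and from 8.36 to 10.9 CPM in hippocampus. Striatum stood above both other regions without overlap, by 0.89 ± 0.09 and 0.90 ± 0.09 on the log2 scale (adjusted p = 2.27e-07 and 2.47e-07). Hippocampus and frontal cortex differed by -0.01 ± 0.09 (adjusted p = 0.935). Zmynd10, needed to assemble dynein arms in the cytoplasm, was also higher in striatum than in frontal cortex, by 0.96 ± 0.17, and than in hippocampus, by 0.63 ± 0.17 (adjusted p = 0.00478). It was not called between hippocampus and frontal cortex (0.33 ± 0.17, adjusted p = 0.124).

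Radial spoke head genes rose in hippocampus in 3 of 3 cases and in striatum in 2 of 3. Rsph1 and Rsph4a, components of the spoke head, rose by 1.65 ± 0.27 and 1.89 ± 0.26 in striatum and by 2.19 ± 0.27 and 2.31 ± 0.26 in hippocampus on the log2 scale. Rsph9, in the same head, ran from 4.66 to 6.01 CPM in frontal cortex, 4.48 to 6.81 CPM in striatum and 7.89 to 13.0 CPM in hippocampus. Only hippocampus was separate for Rsph9, and striatum against hippocampus gave -0.81 ± 0.12 (adjusted p = 1.99e-05). Rsph9 overlaps Mrps18a, a mitochondrial ribosome gene, so that part of its reads may come from the neighbor if strand was not used in counting.

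In the central apparatus 5 of 7 genes were higher in each region, against 31.3% of all genes in striatum and 25.8% in hippocampus. Spag16 and Spag17, which belong to it, were nearly absent from frontal cortex, with 1 to 5 and 0 to 3 reads per library. Spag17 rose by 4.76 ± 0.46 in striatum (adjusted p = 1.02e-07) and 4.71 ± 0.46 in hippocampus (adjusted p = 2.43e-07), and Spag16 by 5.33 ± 0.52 in hippocampus (adjusted p = 2.43e-07). Hydin, which encodes a giant central pair protein, rose by 2.24 ± 0.38 and 2.61 ± 0.38. Cfap46 and Cfap65 were the 2 exceptions. Cfap46 averaged 1.52, 1.55 and 1.52 CPM in frontal cortex, striatum and hippocampus, and Cfap65 gave 0.63 ± 0.30 and 0.69 ± 0.30 (adjusted p = 0.0785 and 0.0622).

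Tektins and other microtubule inner or surface proteins were called higher in 4 of 5 cases in striatum and 5 of 5 in hippocampus, and the exception, Enkur, gave 0.33 ± 0.23 in striatum (adjusted p = 0.219). Of the 6 genes of the tether, the ruler and the nexin-dynein regulatory complex, 5 rose in striatum, and 4 rose and 1, Drc1, fell in hippocampus. Drc7, of the nexin complex, rose by 4.45 ± 0.73 in striatum and by 5.68 ± 0.71 in hippocampus (adjusted p = 4.59e-06), and by 3.32 ± 0.33 and 5.88 ± 0.29 without the 2 libraries that stand apart. Ccdc39, which with Ccdc40 forms the ruler that spaces the axonemal repeats, did not pass the test in either region (0.14 ± 0.10 and 0.07 ± 0.10), whereas Ccdc40 rose by 2.30 ± 0.25 and 2.19 ± 0.25. Ccdc39 overlaps Ttc14 in the annotation, and 4 more of the 40 genes overlap protein-coding neighbors, namely Cfap43 (Gsto1 and Gsto2), Dnah3 (Lyrm1), Spag17 (Wdr3) and Dnah11 (Cdca7l), so that their values are uncertain in the same way as those of Rsph9.

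Drc1, the nexin-dynein complex subunit and the 1 gene called lower, lies on chr5:30281388-30366695 (plus strand). In frontal cortex its level was 11.2, 11.9 and 11.8 CPM in WT and 12.3, 10.5 and 11.2 CPM in Pcm1-/- libraries. In striatum it was 20.4, 19.1 and 19.9 CPM in WT and 20.9, 22.4 and 22.2 CPM in Pcm1-/-, and in hippocampus 6.51, 5.96 and 6.58 CPM in WT and 6.84, 6.71 and 7.06 CPM in Pcm1-/-. The 3 regions did not overlap, with striatum highest and hippocampus lowest, and the spread within a region was small. Striatum exceeded frontal cortex by 0.86 ± 0.05 (adjusted p = 3.99e-10) and hippocampus by 1.65 ± 0.06 on the log2 scale (adjusted p = 1.34e-13), and hippocampus fell by 0.80 against frontal cortex (SE 0.06, adjusted p = 3.92e-09).

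**Figure D2:**
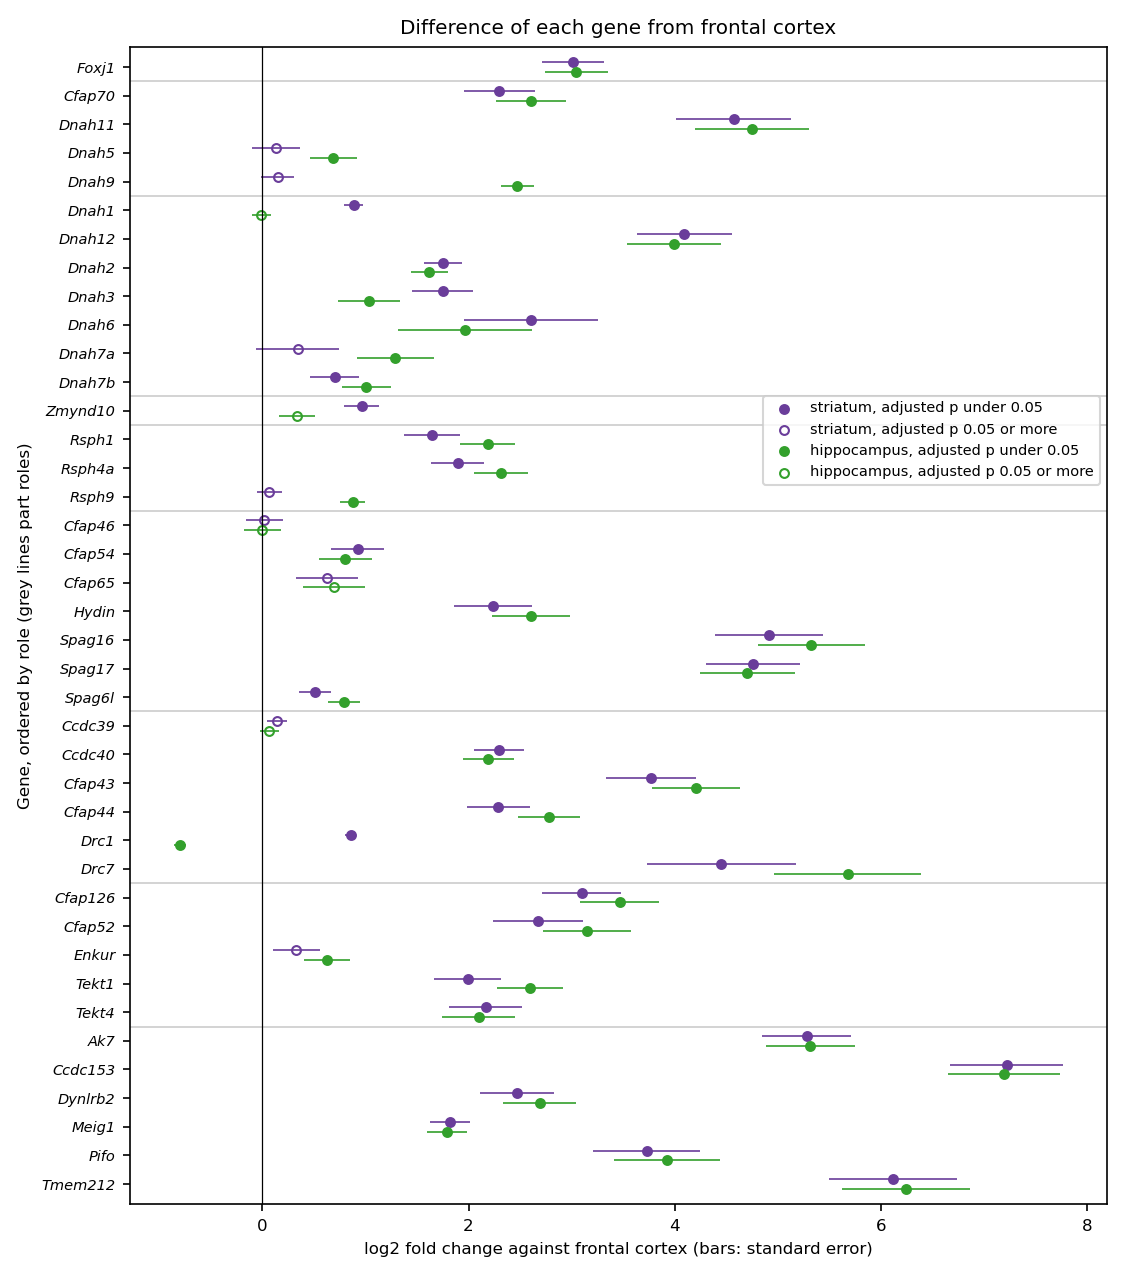
Log2 fold change ± SE of each of the 40 genes in striatum and in hippocampus, each against frontal cortex (horizontal, log2 scale), with genes on the vertical axis grouped by role. Filled points passed an adjusted p of 0.05. Points run from -0.80 for Drc1 in hippocampus to 7.22 for Ccdc153 in striatum. The pair of points of a gene mostly coincide, and those of Dnah9, Drc1 and Drc7 lie furthest apart.

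Striatum was also set against hippocampus. At an adjusted p under 0.05, 4 of the 40 genes were higher in striatum and 3 were lower, against 25.7% and 26.8% of all genes tested. Without overlap 2 were higher and 2 lower (13.8% and 14.6% of all genes). Drc1, Dnah1, Zmynd10 and Dnah3 were higher, and Dnah9, Rsph9 and Dnah7a were lower. Dnah3 (0.71 ± 0.28, adjusted p = 0.0404) and Dnah7a (-0.94 ± 0.36, adjusted p = 0.0374) each lost the call in 9 alternative fits. Drc7 was lower in striatum by 1.23 ± 0.51 without passing (adjusted p = 0.0535), and the log2 fold change was -2.56 ± 0.24 without the 2 libraries that stand apart (adjusted p = 2.13e-07). In fits with animals or replicate numbers as blocks Drc7 was called (56.8% and 52.0% of all genes called). The count rested on the libraries that stand apart. In either direction it was 17 without WT striatum replicate 3 (3 higher and 14 lower; 52.6% of all genes), 11 without Pcm1-/- hippocampus replicate 2 (3 higher and 8 lower; 51.4%) and 24 without both (51.9%). Those 24 were 3 higher in striatum, namely Drc1, Dnah1 and Zmynd10, and 21 lower, against 24.9% and 27.0% of all genes. With WT libraries alone 2 were higher and 2 lower (29.2% of all genes in either direction). Against frontal cortex the counts moved little, with 32 genes called in striatum (61.7% of all genes) and 36 in hippocampus (53.0%) without both libraries.

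Within striatum and within hippocampus the libraries differed in the 40 genes together. In frontal cortex the sum of their levels was 83.9, 84.7 and 99.0 CPM in WT and 81.2, 76.6 and 82.6 CPM in Pcm1-/- libraries, so that all mutant libraries were below all WT libraries. In striatum the sum was 164, 175 and 296 CPM in WT and 246, 275 and 205 CPM in Pcm1-/- libraries, and in hippocampus 296, 175 and 295 CPM and 283, 153 and 296 CPM. The low hippocampal library of each genotype was replicate 2, and the highest striatal libraries were WT replicate 3 and Pcm1-/- replicate 2. The file names assign these 4 libraries to 2 animals, which are also the only 2 with counts of Y-linked genes (2988 to 4306 counts over 4 genes per library, against 0 to 5 in the others). The part of sex or of the animal in the sums was not tested.

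In WT striatum replicate 3, 36 of the 40 genes were above both other WT libraries, with a median ratio to their mean of 1.82. The share of all genes outside both other libraries was not counted, here or for the hippocampal libraries below. These counts are therefore descriptions without a background. Drc7 was extreme: its level was 1.62, 2.56 and 25.9 CPM in the WT striatal libraries, a ratio of 12.4. Spag16 (4.02), Cfap126 (3.82) and Cfap52 (3.38) followed, whereas Dnah1 (1.00) and Drc1 (1.01) were level with the other libraries. Dnah6 had a ratio of 0.654, but at 24.2, 4.00 and 9.22 CPM in the 3 libraries replicate 3 lay between the others. The 20 choroid plexus markers were all above both other libraries there, with a median ratio of 42.0, as were 6 of 8 thalamus and habenula markers (median ratio 2.53) and 8 of 10 ependymal markers outside the axoneme (1.33). Leptomeningeal markers summed to 58.6, 65.6 and 355 CPM in WT striatum replicates 1, 2 and 3. The part of all these markers in the levels of the 40 genes was not tested. In Pcm1-/- hippocampus replicate 2, 37 of the 40 genes were below both other libraries, with a median ratio of 0.433, and all 20 choroid plexus markers were below with a median ratio of 0.0814. Dnah6, Hydin, Dnah11 and Drc7 were lowest (0.216, 0.226, 0.230 and 0.258). WT hippocampus replicate 2 was also low, in 37 of 40 genes with a median ratio of 0.542 (34 of the 37 genes of either library, 91.9%, were shared), but there only 6 of 20 choroid plexus markers were below both other libraries (median ratio 0.602) beside 7 of 8 thalamus and habenula markers (0.486). Ependymal markers outside the axoneme were below both other libraries in 8 of 10 cases, and above in 1, in Pcm1-/- replicate 2 (median ratio 0.549) and likewise in WT replicate 2 (0.635).

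**Figure D3:**
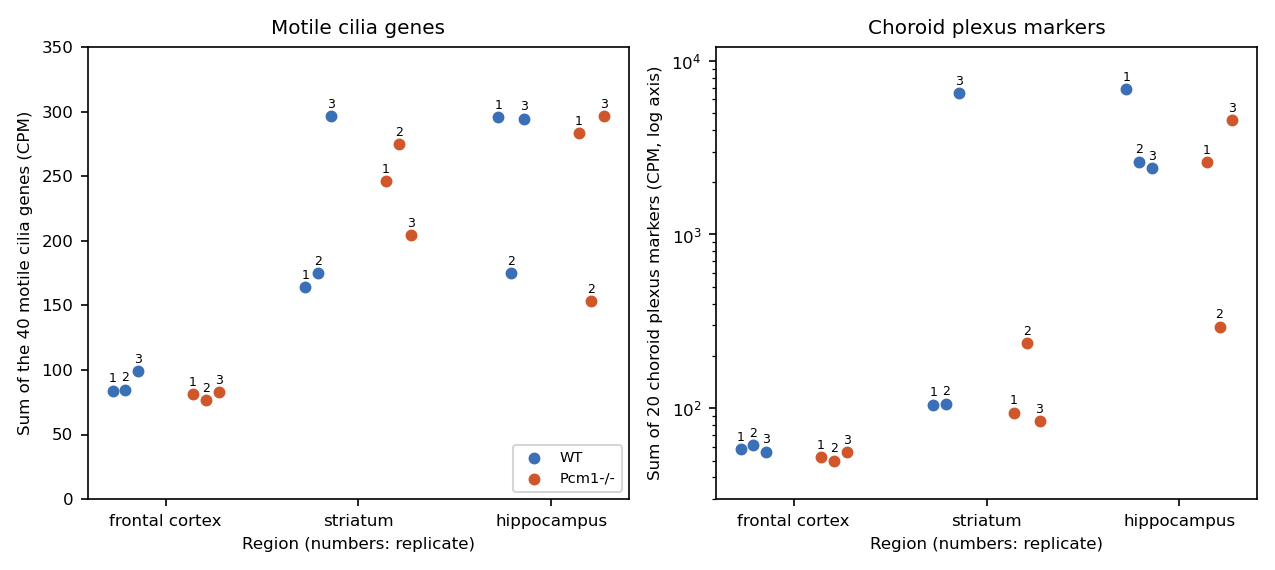
Summed level of the 40 genes (CPM, linear axis) and of 20 choroid plexus markers (CPM, log axis) in each library, by region and genotype. The sum of the 40 genes stays between 153 and 296 CPM in striatum and hippocampus, while the choroid plexus sum jumps to 6515 CPM in WT striatum replicate 3 and drops to 294 CPM in Pcm1-/- hippocampus replicate 2.

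After region means were removed, most pairs of the genes were positively correlated over the 18 libraries. Pearson's r was positive in 771 of 780 pairs of genes, with a median of 0.589 and a range of -0.12 to 0.935. These points share libraries, animals and the same normalization, and r is given as a description. Dynlrb2 followed the mean of the other genes most closely (r = 0.97), with Enkur and Rsph4a at 0.93 each. Dnah6 (0.32), Drc1 (0.36) and Dnah1 (0.43) followed it least. Likeness to the choroid plexus markers ordered the genes in another way. The mean of the 40 genes had r = 0.64 with the mean of those markers. For single genes r ran from -0.13 for Drc1 and -0.09 for Dnah1, by way of 0.24 for Tmem212 and 0.26 for Ccdc153, to 0.77 for Spag16 and Cfap126, 0.83 for Tekt1 and 0.95 for Drc7. WT striatum replicate 3 and Pcm1-/- hippocampus replicate 2 lay furthest from their region means in those markers, by 4.02 and -2.64 on the log2 scale. These values of r lean on those libraries, and r without them was not computed. Among 14039 other genes of at least 1 CPM, the 10 most like the mean of the 40 were Cd24a (0.939), Ubxn10 (0.934), Cdhr3 (0.927), Armc3 (0.925), 2410004P03Rik (0.917), Cfap61 (0.907), Ccdc146 (0.907), Lrrc23 (0.906), Ttc21a (0.905) and Lrguk (0.903).

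Dnah6, an inner arm chain on chr6:73017606-73221651, varied by animal instead. In frontal cortex its level was 4.94 CPM in WT replicate 3 and 3.89 CPM in Pcm1-/- replicate 1, and 0.56 to 0.80 CPM in the other 4 libraries. In striatum the same 2 animals gave 24.2 CPM (WT replicate 1) and 19.9 CPM (Pcm1-/- replicate 1), and the other 4 gave 4.00 to 9.22 CPM. In hippocampus they gave 12.7 and 9.34 CPM, beside 7.93, 2.92, 2.06 and 9.67 CPM in the other animals, so that the separation seen in frontal cortex and striatum was not seen there. One of the animals was WT and the other Pcm1-/-. The neighboring genes Tmsb10 and Suclg1 did not share the pattern: in frontal cortex Tmsb10 stayed between 31.4 and 39.1 CPM and Suclg1 between 69.1 and 81.5 CPM.

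**Figure D4:**
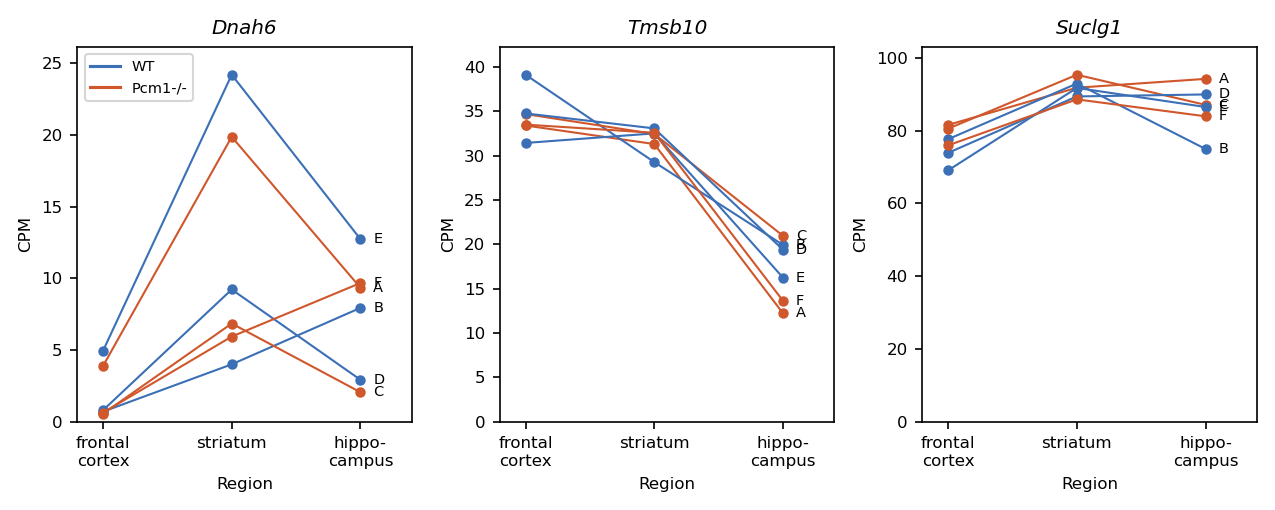
Level (CPM) of Dnah6 and of its neighbors Tmsb10 and Suclg1 in each region, with 1 line per animal marked A to F and genotype by color. Animals A (Pcm1-/-) and E (WT) are highest for Dnah6 in frontal cortex (3.89 and 4.94 CPM) and striatum (19.9 and 24.2 CPM), and are not set apart for the neighbors.

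The second comparison asked whether loss of Pcm1, whose product organizes the satellites around centrioles and basal bodies, changed the RNA of the motile cilium. At an adjusted p under 0.05 no member gene differed between genotypes in any region, that is 0 of 40 in frontal cortex, 0 of 40 in striatum and 0 of 40 in hippocampus by edgeR's quasi-likelihood test on 6 libraries per region. Among all genes tested 1.74%, 0.0285% and 0.0171% were called in the same 3 fits. At an unadjusted p under 0.05, 1 gene was higher and 4 were lower in frontal cortex (7.84% and 7.47% of all genes), 5 were higher and 0 lower in striatum (6.54% and 6.98%), and 1 was higher and 0 lower in hippocampus (4.84% and 5.06%). The median log2 fold changes of the 40 genes were -0.05, 0.24 and -0.06. With single libraries left out these medians ran from -0.16 to 0.02 in frontal cortex, from 0.08 to 0.73 in striatum and from -0.32 to 0.22 in hippocampus. DESeq2 called 1, 0 and 0 of the 40 (3.68%, 2.27% and 1.09% of all genes).

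In frontal cortex the smallest adjusted p was that of Cfap65, a central apparatus gene (chr1:74902071-74935599, minus strand). Its level was 5.01, 5.29 and 4.24 CPM in WT and 2.92, 3.67 and 2.78 CPM in Pcm1-/- libraries. The groups did not overlap, and the log2 fold change was -0.64 ± 0.16 (adjusted p = 0.0898). The call was not settled. Cfap65 passed with DESeq2 (adjusted p = 0.0427) and with replicate number as a block (edgeR adjusted p = 0.0379, with 3.79% of all genes called). It also passed without WT replicate 3 (edgeR adjusted p = 0.0422, with 4.70% of all genes called) but in no other fit that left out 1 library. Ccdc40 stood at 1.05, 1.10 and 1.55 CPM in WT and 0.72, 0.71 and 0.84 CPM in Pcm1-/- libraries, again without overlap (-0.71 ± 0.23, adjusted p = 0.194). Dnah5, an outer arm chain, stood at 4.03, 3.73 and 6.05 CPM and at 3.01, 2.81 and 3.97 CPM, with overlap (-0.51 ± 0.22, adjusted p = 0.311). With Tekt4 and Zmynd10, 4 genes were lower in all mutant libraries than in all WT libraries and 0 were higher, against 9.28% and 12.0% of all genes. Summed levels of some related lists lay lower without overlap as well. The ependymal markers outside the axoneme summed to 66.9 to 75.2 CPM in WT and 44.0 to 66.5 CPM in Pcm1-/- libraries, the multiciliation regulators to 108 to 127 CPM and 101 to 105 CPM, other radial spoke, nexin and central apparatus genes to 89.1 to 91.2 CPM and 81.6 to 84.6 CPM, and the choroid plexus markers to 56.2 to 61.2 CPM and 49.96 to 55.8 CPM. Sums overlapped between genotypes for genes of dynein arm assembly and docking (69.1 to 72.4 CPM in WT and 71.9 to 74.3 CPM in Pcm1-/- libraries), other axonemal dynein chains (201 to 215 CPM and 201 to 205 CPM) and other microtubule genes of the motile cilium (45.6 to 50.3 CPM and 46.0 to 51.2 CPM). Markers of frontal cortex lay the other way, at 2539 to 2587 CPM and 2888 to 3086 CPM. Log2 fold changes were negative for 16 of 20 choroid plexus markers (median -0.24) and 8 of 9 leptomeningeal markers (median -0.34), and the part of these markers in the values of the 40 genes was not tested.

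In striatum 32 of the 40 genes had a positive log2 fold change. Ependymal markers outside the axoneme were positive in 5 of 10 cases and negative in 5 (median 0.01), with 2 higher and 0 lower at an unadjusted p under 0.05. Their sums overlapped, at 147 to 193 CPM in WT and 156 to 174 CPM in Pcm1-/- libraries. Markers of tissue moved in the same fit: 6 of 6 striatum markers were positive, 4 at an unadjusted p under 0.05 (median 0.30, summed level 5162 to 6128 CPM in WT and 6244 to 6675 CPM in Pcm1-/- libraries), and 9 of 9 leptomeningeal markers were negative, 5 at that level (median -0.76). Thalamus and habenula markers were negative in 7 of 8 cases, 4 at that level (median -0.74, summed level 139 to 269 CPM in WT and 124 to 134 CPM in Pcm1-/- libraries), and frontal cortex markers in 6 of 6, 2 at that level (median -0.61, 56.7 to 122 CPM and 55.0 to 66.6 CPM). Their part in the values of the 40 genes was not tested. The smallest adjusted p was that of Tmem212, with 1.29, 2.23 and 3.00 CPM in WT and 4.50, 5.16 and 3.58 CPM in Pcm1-/- libraries. All mutant libraries were above all WT libraries, and the log2 fold change was 1.02 ± 0.29 (adjusted p = 0.218). Ccdc153 stood at 3.20, 4.79 and 7.44 CPM and at 8.18, 10.8 and 6.73 CPM, with overlap (0.74 ± 0.30, adjusted p = 0.345). Besides Tmem212, Dnah1, Dnah2, Dnah5 and Drc1 were separated upward and 0 downward, against 9.60% and 9.39% of all genes. Drc7 had the largest fold change and the largest error, -1.26 ± 0.91 (adjusted p = 0.591), with 1.62, 2.56 and 25.9 CPM in WT and 3.79, 5.60 and 3.15 CPM in Pcm1-/- libraries.

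These striatal values hinged on WT replicate 3, the library high in choroid plexus markers. Without it 39 of 40 genes were positive, Dnah6 being the exception, the median log2 fold change was 0.73, and Drc7 turned to 1.00. The count at an unadjusted p under 0.05 went from 5 to 27 of 40 (6.67% of all genes were higher at that level), and still 0 passed the adjustment, with 0.0285% of all genes called (smallest adjusted p = 0.110, Ak7). The 2 WT libraries left came from animals without Y-linked counts. With the presence of Y-linked counts as a covariate, 2 of the 40 genes were called higher in striatum, Dnah2 (0.52, adjusted p = 0.0477) and Tmem212 (1.04, adjusted p = 0.0495), against 2.88% of all genes called in either direction, and 0 were called in frontal cortex (1.64%) and hippocampus (0.0342%). The choroid plexus markers themselves had a median log2 fold change of -3.48 in striatum with that library included, 11 of 20 lower at an unadjusted p under 0.05. Without it their median was 0.36, with 4 higher and 1 lower at that level (6.67% and 6.97% of all genes). Among other markers the medians without it were 0.26 for striatum (6 of 6 positive), -0.37 for leptomeninges (7 of 9 negative), -0.28 for thalamus and habenula (8 of 8 negative) and -0.78 for frontal cortex (4 of 6 negative). The WT striatal libraries were run on lane 5 and the mutant ones on lanes 3 and 4, and effects of lane cannot be told apart from those of genotype there.

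In hippocampus the differences between genotypes were small beside the spread of the libraries. Drc7 stood at 29.4, 14.9 and 13.5 CPM in WT and 12.9, 4.07 and 18.7 CPM in Pcm1-/- libraries (-0.70 ± 0.51, adjusted p = 0.671). Tekt1, a tektin of the doublet wall, stood at 6.24, 3.00 and 3.96 CPM and at 3.81, 1.51 and 4.31 CPM (-0.46 ± 0.41, adjusted p = 0.730). Meig1 stood at 3.04, 1.95 and 2.65 CPM and at 2.20, 1.55 and 1.95 CPM (-0.44 ± 0.24, adjusted p = 0.590). The groups overlapped for these 3 genes. Dnah9 and Drc1 were the 2 genes separated upward, with 0 downward, against 10.6% and 6.46% of all genes. Thalamus and habenula markers moved with genotype here, with negative log2 fold changes in Pcm1-/- for 8 of 8, 7 of them at an unadjusted p under 0.05, and a summed level of 338 to 718 CPM in WT and 170 to 359 CPM in Pcm1-/- libraries, and their part in these values was not tested. Frontal cortex markers summed to 1454 to 1905 CPM in WT and 1975 to 2400 CPM in Pcm1-/- libraries, without overlap. They were positive in 4 cases and negative in 2, and their part was not tested either. Choroid plexus markers had negative values in 20 of 20 cases (median -0.58), with overlapping sums of 2401 to 6846 CPM in WT and 294 to 4569 CPM in Pcm1-/- libraries, and leptomeningeal markers in 8 of 9 (median -0.56), and the part of either was not tested. Without Pcm1-/- replicate 2 the choroid plexus markers were negative in 16 of 20 cases (median -0.10), the leptomeningeal markers in 7 of 9 (median -0.21) and the thalamus and habenula markers in 8 of 8, 4 at an unadjusted p under 0.05. The 40 genes were then positive in 29 cases (median 0.22). The median of the 40 genes ran from -0.32 to 0.22 when single libraries were left out.

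**Figure D5:**
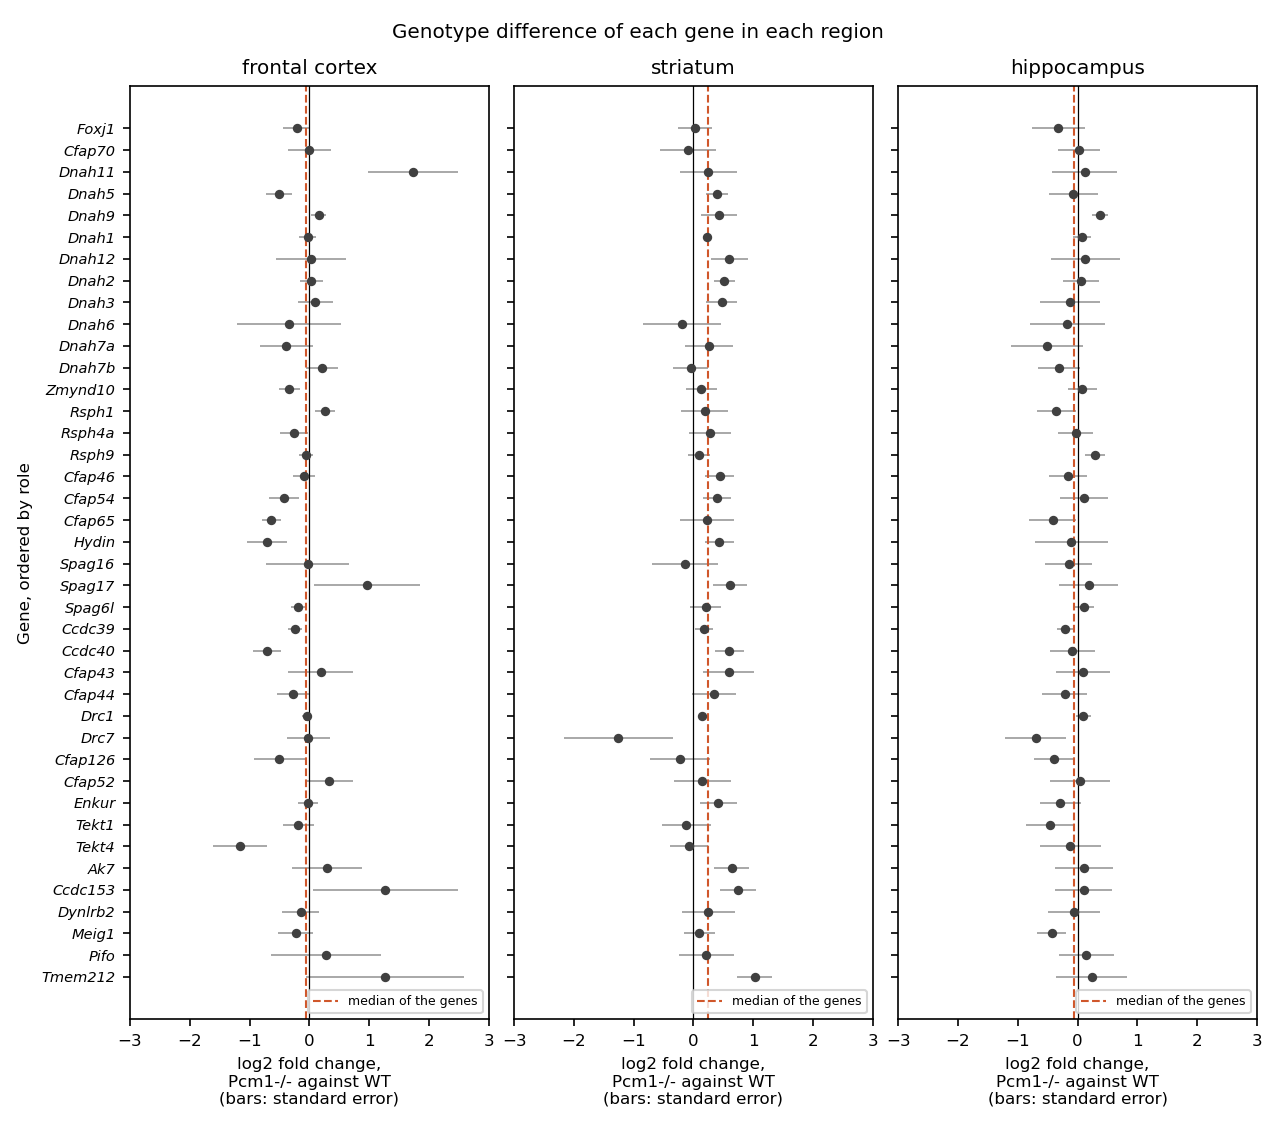
Log2 fold change ± SE of each of the 40 genes, Pcm1-/- against WT, in frontal cortex, striatum and hippocampus (horizontal, log2 scale; genes on the vertical axis by role; dashed line, median of the 40). No point passed an adjusted p of 0.05. The medians are -0.05, 0.24 and -0.06, and the wide bar of Drc7 in striatum (-1.26 ± 0.91) reflects 1 WT library at 25.9 CPM.

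Whether the genotype effect differed between regions was tested as an interaction over the 18 libraries. No member gene passed (smallest adjusted p = 0.904), against 0.0114% of all genes tested, and 0 had an unadjusted p under 0.05 in edgeR (5.54% of all genes). DESeq2 called 0, with 1 at that unadjusted level. With single libraries left out, 0 to 4 of the 40 had an unadjusted p under 0.05. Without both libraries that stand apart there were 7 (6.10% of all genes), namely Ccdc40, Dnah9, Spag6l, Cfap54, Cfap65, Rsph9 and Drc7, of which 0 passed the adjustment (smallest adjusted p = 0.654).

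Other genes of the motile cilium were read from lists of related genes, and their counts stand beside the shares of all genes called against frontal cortex, which were 31.3% upward and 30.6% downward for striatum and 25.8% and 26.0% for hippocampus. Of 13 multiciliation regulators tested, 11 were higher in striatum than in frontal cortex and 10 in hippocampus, with none lower. Myb, a cell cycle factor reused in multiciliated cells, rose by 3.70 ± 0.33 and 3.65 ± 0.33 on the log2 scale, whereas Mcidas rose in striatum (2.37 ± 0.29) with -0.01 ± 0.34 in hippocampus, and its relative Gmnc rose in hippocampus (2.07 ± 0.18) with -0.16 ± 0.20 in striatum. Of 15 genes for dynein arm assembly and docking 6 rose and 3 fell in striatum, and 8 rose and 2 fell in hippocampus. The dynein assembly factor Dnaaf1 rose by 1.93 ± 0.42 and 1.88 ± 0.43, while Lrrc6, another such factor, had log2 fold changes of -0.34 ± 0.10 and -1.05 ± 0.10. Of 10 other axonemal dynein chains 6 rose and 2 fell in striatum and 7 rose and 1 fell in hippocampus, among them Dnali1, an inner arm light intermediate chain (4.33 ± 0.44 and 4.49 ± 0.44). Of 24 other radial spoke, nexin and central apparatus genes 11 rose and 5 fell in striatum and 14 rose and 2 fell in hippocampus. Of 26 other microtubule genes of the motile cilium 19 rose and 0 fell in each region. Between genotypes edgeR and DESeq2 called 0 of these 88 genes in each region. At an unadjusted p under 0.05 frontal cortex had 1 higher and 8 lower by edgeR (7.84% and 7.47% of all genes), striatum had 3 and 0 (6.54% and 6.98%), and hippocampus had 0 and 1 (4.84% and 5.06%). Without WT striatum replicate 3 the striatal count went to 33 higher and 0 lower (6.67% and 6.97%), with 0 past the adjustment, and without Pcm1-/- hippocampus replicate 2 the hippocampal count was 0 and 0 (4.00% and 4.33%).

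Ependymal markers outside the axoneme were also read beside those shares of all genes: 8 of 10 were higher in striatum than in frontal cortex, and 9 rose while S100a6 fell in hippocampus. Calml4, a calmodulin-like gene, rose by 6.38 ± 1.11 and 7.71 ± 1.03, and Vit by 3.27 ± 0.18 and 4.32 ± 0.17. Choroid plexus markers were higher in 14 of 20 cases in striatum (median log2 fold change 3.62) and 20 of 20 in hippocampus. Without both libraries that stand apart 13 were higher and 1 lower in striatum (median 1.54; 31.1% and 30.6% of all genes), and 20 were higher in hippocampus. Of 10 markers of subventricular zone progenitors and neuroblasts striatum had 5 called higher and 3 lower, and hippocampus 6 and 4. Leptomeningeal markers were lower in 7 of 9 cases in striatum, and 4 were higher and 1 lower in hippocampus. Without both libraries, no count of a list against frontal cortex moved by more than 2 genes in either direction. Between genotypes edgeR called 0 of these markers and of the thalamus and habenula markers, 57 in all, in each region, with 2 higher and 7 lower at an unadjusted p under 0.05 in frontal cortex (7.84% and 7.47% of all genes), 2 and 21 in striatum (6.54% and 6.98%), and 2 and 10 in hippocampus (4.84% and 5.06%). The striatal count was 8 and 8 without WT replicate 3 (6.67% and 6.97%) and the hippocampal count 3 and 5 without Pcm1-/- replicate 2 (4.00% and 4.33%). DESeq2 called Prkcd in frontal cortex (3.68% of all genes), Dcn and Ogn in striatum (2.27%) and Lef1 in hippocampus (1.09%), all lower in Pcm1-/-.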

How the data were processed

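RNA had been extracted with the RNeasy kit, and libraries had been made with KAPA stranded mRNA-seq kits and sequenced on an Illumina HiSeq. The authors trimmed reads with Trim Galore and cutadapt, aligned them with STAR to GRCm38 and kept uniquely mapped reads, and the deposited values are whole-number HTSeq counts per Ensembl gene, 1 table per library (versions and the strand setting are not given in the sources used here). Rows for reads on no gene were left out, and 86.8% to 89.2% of reads in a table were on a gene. Libraries held 24950537 to 33405081 counts on genes.

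The test set was every gene that reached 10 counts in any library (17545 genes), and edgeR 4.0.16 (R 4.3.3) was run with TMM factors and its quasi-likelihood test. Genotype was fitted on the 6 libraries of a region without covariates; regions and the interaction were fitted on 18 libraries in 6 groups. P values were adjusted by Benjamini-Hochberg over all genes and called under 0.05. SE was taken as the absolute log2 fold change over the root of its F statistic. CPM are TMM-normalized and log2 CPM used a prior count of 2. The fits were tested on simulated data. Replicates of a group differed beyond sampling noise (chi-square of at least 7.01 per gene for every pair), and the spread beyond counting was 9.49%, 13.8% and 16.4% (biological coefficient of variation, frontal cortex, striatum and hippocampus). Symbols and coordinates come from GENCODE M21 (GRCm38), which held 36723 of the 38561 identifiers.

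The 40 genes and the gene lists were chosen with earlier results of these data known. Full statistics were given for at most 8 called members per comparison and for the 3 with the largest fold change at an average log2 CPM of at least 0. Markers and related genes were chosen for naming partly after their values were seen. Replicate numbers did not pair the genotypes in every region, by correlations after group means were removed. Same-numbered libraries correlated at 0.043 to 0.260 in frontal cortex, -0.27 to 0.178 in striatum and 0.096 to 0.507 in hippocampus. Different-numbered ones correlated at -0.22 to 0.040, -0.35 to 0.388 and -0.39 to 0.232. Same-numbered libraries were thus more alike in frontal cortex, and on average in hippocampus (mean 0.265 against -0.13), but not in striatum (-0.08 against 0.044). The libraries with Y-linked counts shared a number across genotypes in frontal cortex and hippocampus, but not in striatum. Animal identity comes from the names of the deposited tables, and in striatum the WT replicate numbers do not follow it. Alternatives were DESeq2 1.42.0 or its scaling alone, a stricter and a looser filter, genotype from the fit of 18 libraries, lane, replicate and animal blocks, WT libraries only and leaving out each library. The fits without both libraries that stand apart, and those with the presence of Y-linked counts as a covariate, were added after seeing the data.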

Additional observations from a re-analysis of the deposited data

How the results depend on the processing

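Against frontal cortex, the number of the 40 genes called stayed within 31 to 33 in striatum and 32 to 36 in hippocampus when single libraries were left out. With WT libraries only it was 28 and 28 (41.5% and 29.8% of all genes), all among the genes called with all libraries. Striatum against hippocampus ranged from 5 to 17 with single libraries left out (17 without WT striatum replicate 3), and was 4 with WT libraries only and 24 without both libraries that stand apart. For genotype, the count was 0 to 1 in frontal cortex and 0 in striatum and hippocampus with single libraries left out, and 0 for the interaction. Cfap65 made 1 call in frontal cortex with DESeq2 (adjusted p = 0.0427), with the replicate block (adjusted p = 0.0379 by edgeR; 3.79% of all genes called) and without WT frontal cortex replicate 3 (adjusted p = 0.0422). With the presence of Y-linked counts as a covariate, 2 genes were called in striatum, Dnah2 (0.52, adjusted p = 0.0477) and Tmem212 (1.04, adjusted p = 0.0495), among 505 of 17545 genes (2.88%), and 0 in frontal cortex and hippocampus. Drc7 in striatum ranged from -1.76 to 1.00 with single libraries left out, the last without WT striatum replicate 3 and its 25.9 CPM. Beyond these the cause of a change was not tested. The block of replicate number, or of the animal for regions, changed no other genotype call, and the animal block gave 32, 35 and 8 calls for the 3 region contrasts (65.7%, 56.6% and 56.8% of all genes), the last gaining Drc7.

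Genes near 0 counts in frontal cortex bound the precision of their fold changes, and 3 libraries per group left a median SE of 0.28, 0.30 and 0.40 on the log2 scale for the genotype effects of the 40 genes. P values over regions treat libraries of 1 animal as independent unless the animal block is used. A lane covariate could not be fitted for genotype in striatum.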
